A study of Homo sapiens with 12 samples.

Results

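The genes described are those of the entry step of the cell cycle: the D cyclins CCND1, CCND2 and CCND3, their kinases CDK4 and CDK6, the CDK inhibitors CDKN1A, CDKN1B and CDKN2C, and the pocket protein gene RB1. They were chosen by symbol. All 9 were among the 17520 genes of the expression table. Listed m6A sites within their gene bodies and on their strand were added, 36 of the 63578 sites listed with insulin+Torin1 and 64 of the 96671 listed with insulin. HEK293E, a human embryonic kidney line, was deprived of serum overnight and then received 200 nM insulin for 30 h, either after pretreatment with Torin1 (250 nM) or without it. Torin1 is an inhibitor of the kinase mTOR, and both groups received insulin. No group without insulin was among the samples, so every difference here is between insulin+Torin1 and insulin. The 12 samples were 3 input and 3 miCLIP libraries of poly(A) RNA for each treatment. The labels call them biological replicates without naming separate cultures, so the p-values measure the spread between these samples, which may in part be technical. Where depth was recovered, squared differences between input replicates were 1.09 to 1.24 times those of read sampling. This was measured in genes with values that summed to 50 to 1000 over 2 libraries. In those genes the spread was little more than read sampling, and the p-values may not cover variation between cultures.

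D cyclins are made when growth signals arrive, and they activate CDK4 and CDK6, which phosphorylate the RB1 protein and its relatives. Phosphorylation releases E2F transcription factors, which then drive the genes of DNA synthesis. INK4 inhibitors such as p18, the product of CDKN2C, bind CDK4 and CDK6 directly, whereas the Cip/Kip proteins p21 (CDKN1A) and p27 (CDKN1B) bind cyclin and CDK complexes. HEK293 cells and their derivatives carry adenovirus early-region genes whose products bind pocket proteins, which limits them as a model of this step. N6-methyladenosine (m6A) is a methyl mark on adenosines of mRNA. In miCLIP an m6A antibody is crosslinked to RNA, and base substitutions at the crosslink mark the methylated base in the reads.

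The m6A sites with the most substituted reads among positions found in both lists are printed here for the 6 genes that had such a position, as the 5-mers that the authors deposited, with coordinates on hg38. They are written 5′ to 3′ on the gene strand, and the capital marks the methylated adenosine. They are shown because the read counts at such positions are the values compared between treatments further on.

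CCND2, chr12:4299961-4299961, plus strand: gaAct

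CDK4, chr12:57748473-57748473, minus strand: ggAca

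CDK6, chr7:92615216-92615216, minus strand: ggAcc

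CDKN1A, chr6:36687012-36687012, plus strand: ggAca

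CDKN1B, chr12:12721142-12721142, plus strand: ggAca

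CDKN2C, chr1:50973968-50973968, plus strand: gaAct

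Promoter windows of 300 bases, 250 before a start and 50 after it, were read from the RefSeq table of GRCh38.p14. They existed for 7 of the 9 genes, all but CCND1 and CCND2, and numbered 12. Each was searched on both strands for the E-box CACGTG bound by MYC and MAX family proteins, for the E2F motifs TTTCGCGC and TTTGGCGC, and for the FOXO motif GTAAACA. The E-box was in 4 of the 12 windows, and in 7.26% of the 35116 windows of the table. The FOXO motif was in 1 of the 12, and in 3.42% of all windows. No window of these genes held either E2F motif, which 1.15% of all windows held. A match describes the letters of a window and does not show binding. The windows printed here belong to CDK4 and CCND3, whose mRNA was lower with insulin+Torin1, and to CDKN1B, whose mRNA was higher. Capitals mark the matches, which are 3 E-boxes in CDK4, starting 216, 196 and 101 bases before the start, and 1 FOXO motif in CCND3, starting 2 bases before the start. The CDKN1B window held none of the 3 motifs. Neither did the other windows of CCND3, which belong to other starts at chr6:41941759-41942058 and chr6:41939156-41939455.

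CDK4, chr12:57752261-57752560, minus strand: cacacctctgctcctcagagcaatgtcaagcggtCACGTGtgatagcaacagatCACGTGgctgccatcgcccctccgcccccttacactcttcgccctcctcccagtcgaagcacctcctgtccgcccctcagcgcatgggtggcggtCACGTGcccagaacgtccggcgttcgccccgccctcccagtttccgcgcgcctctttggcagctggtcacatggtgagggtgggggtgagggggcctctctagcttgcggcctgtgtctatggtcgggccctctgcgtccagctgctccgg

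CCND3, chr6:42048639-42048938, minus strand: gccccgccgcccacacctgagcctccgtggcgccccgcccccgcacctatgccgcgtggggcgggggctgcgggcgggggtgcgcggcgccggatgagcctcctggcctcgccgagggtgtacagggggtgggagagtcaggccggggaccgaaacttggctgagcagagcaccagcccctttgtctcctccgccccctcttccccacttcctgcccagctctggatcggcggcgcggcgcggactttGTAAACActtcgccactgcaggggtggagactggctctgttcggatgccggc

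CDKN1B, chr12:12717118-12717417, plus strand: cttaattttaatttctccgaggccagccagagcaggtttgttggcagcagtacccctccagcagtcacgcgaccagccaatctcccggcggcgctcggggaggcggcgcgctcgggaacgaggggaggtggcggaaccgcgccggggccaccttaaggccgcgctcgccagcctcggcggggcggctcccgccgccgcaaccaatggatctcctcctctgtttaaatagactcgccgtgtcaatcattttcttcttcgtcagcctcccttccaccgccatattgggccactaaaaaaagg

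E-boxes were also found in the CDK6 window at chr7:92836524-92836823, 30 bases after the start, and in windows of CDKN2C, 220 and 69 bases before their starts. The windows of CDKN1A and RB1 held no match. The RB1 window, chr13:48476200-48476499, lies within the gene body and far from its annotated first base.

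The expression table holds values that the authors scaled between libraries and rounded, called normalized units here. Library totals were 11418114 to 11438881 units with insulin+Torin1 and 12424643 to 12528454 with insulin. The grid of low values gave a depth of 8.20 and 11.1 M reads for insulin+Torin1 replicates 3 and 2, and of 7.33 to 11.8 M for the insulin libraries. The depth of insulin+Torin1 replicate 1 could not be recovered. Expression was compared with limma on log2(value + 1) over 13842 genes that reached 10 units in 3 or more libraries. A gene was called at a Benjamini-Hochberg adjusted p below 0.05. By that rule 43.4% of the tested genes rose with insulin+Torin1 and 42.5% fell, so a call by itself does not set a gene apart. Of 10 markers of HEK293 and embryonic kidney, 8 were in the table and 7 were tested, 2 of them higher and 3 lower. Their summed level was 1207 to 1230 units with insulin+Torin1 and 1798 to 1916 with insulin. LHX1, GATA3 and EYA1 were present, and PAX2 was under the filter. Of 10 blood cell markers, 9 were in the table and 4 were tested (0 higher, 3 lower), and their sum was 57 to 66 units with insulin+Torin1 and 186 to 198 with insulin. Of 9 fibroblast and endothelial markers, 8 were in the table and both tested ones were higher, with sums of 547 to 566 units with insulin+Torin1 and 194 to 250 with insulin. Of 6 keratinocyte and hepatocyte markers, 4 were in the table and the 1 tested, KRT10, was lower, with sums of 335 to 380 units with insulin+Torin1 and 710 to 791 with insulin. No marker in the table was at 0 in all libraries, and the part of these differences in the results below was not tested. In bulk RNA, fewer cells in a state and less of a transcript per cell cannot be told apart.

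Among the 9 genes 2 were called higher (CDKN1B and CDKN2C), 5 lower (all 3 D cyclins, CDK4 and RB1), and 2 were not called (CDK6 and CDKN1A). All 9 passed the filter on low values. The median log2 fold change of the 9 was -0.41, against 0.02 over all tested genes. The groups did not overlap for the same 7 genes, a state reached upward by 43.5% and downward by 42.8% of tested genes.

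**Figure D1:**
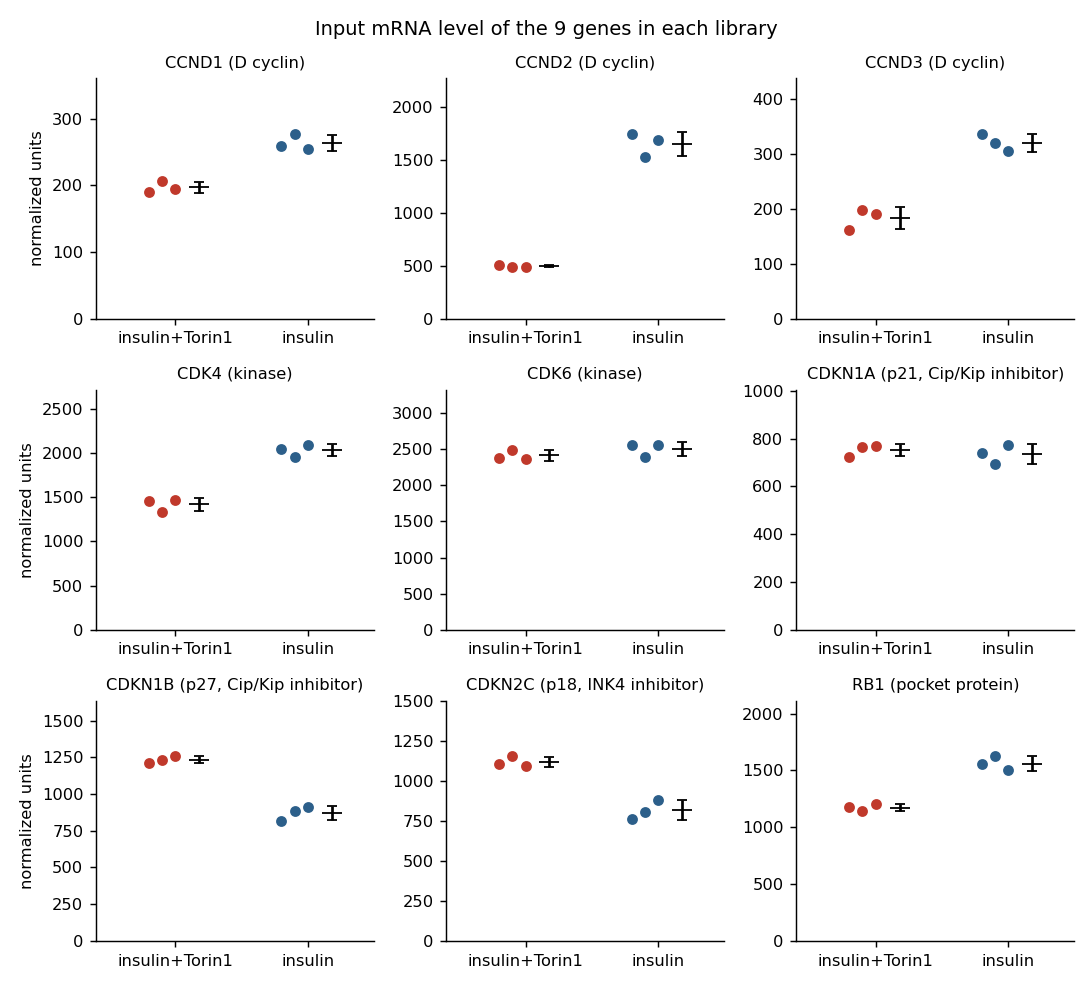
Normalized units of each of the 9 genes in the 3 insulin+Torin1 libraries (red points, left) and the 3 insulin libraries (blue points, right), on linear axes from 0, with horizontal bars for the mean and vertical bars for the SD. The points of the 2 groups are apart in every panel but those of CDK6 and CDKN1A.

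All 3 D cyclin mRNAs fell with insulin+Torin1, CCND2 by the largest factor of the 9 genes. CCND2 encodes cyclin D2, a growth-factor-induced activator of CDK4 and CDK6. It measured 506, 492 and 490 units in insulin+Torin1 replicates 1, 2 and 3, against 1747, 1525 and 1689 in insulin replicates 1, 2 and 3. Every insulin+Torin1 library was therefore far under every insulin library. The mean was 496 ± 8.72 units with insulin+Torin1 and 1654 ± 115 with insulin (SD, n = 3 each), a ratio of 0.301. The log2 fold change was -1.73 (95% interval -1.84 to -1.63), with a limma adjusted p of 5.28e-19. Only 6.28% of tested genes had a log2 fold change as low or lower.

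CCND3, which encodes cyclin D3, measured 161, 199 and 191 units with insulin+Torin1 and 337, 320 and 305 with insulin. The groups did not overlap, and the lowest value was that of insulin+Torin1 replicate 1. The means of 184 ± 20.0 units with insulin+Torin1 and 321 ± 16.0 with insulin gave a ratio of 0.572 and a log2 fold change of -0.81 (95% interval -0.99 to -0.62). The limma adjusted p was 2.18e-08. CCND1, the cyclin D1 gene, measured 190, 206 and 194 units with insulin+Torin1 and 259, 277 and 254 with insulin. Its groups were apart too, by a narrower margin. The mean was 197 ± 8.33 units with insulin+Torin1 and 263 ± 12.1 with insulin, a ratio of 0.748 and a log2 fold change of -0.42 (95% interval -0.60 to -0.24), with a limma adjusted p of 9.31e-05. With quantile normalization, which makes the libraries' distributions equal, the log2 fold change of CCND1 was -0.69. CCND1 and CCND3 rested on few reads, an estimated 137 to 290 per library where depth was recovered, against 352 to 1605 for CCND2. In limma's test for a change beyond 1.5-fold, CCND2 (adjusted p 1.72e-15) and CCND3 (adjusted p 0.0262) were the only 2 of the 9 genes that passed. In that test 25.0% of all tested genes were called higher and 22.5% lower.

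The pair of kinases differed in their calls. CDK4 measured 1455, 1329 and 1471 units with insulin+Torin1, against 2042, 1958 and 2091 with insulin. The 2 groups were well apart. CDK4 averaged 1418 ± 77.8 units with insulin+Torin1 and 2030.3 ± 67.3 with insulin (SD, n = 3 each), a ratio of 0.698 and a log2 fold change of -0.52 (95% interval -0.61 to -0.43), with a limma adjusted p of 1.22e-10. With quantile normalization the log2 fold change was -0.25. CDK4 shares 2493 bases with TSPAN31, a tetraspanin gene on the other strand that spans chr12:57745039-57750219. TSPAN31 measured 566, 586 and 529 units with insulin+Torin1 and 777, 874 and 801 with insulin, a log2 fold change of -0.54 with a limma adjusted p of 7.48e-09. Whether the authors counted reads by strand is not given in the sources used here, so reads of the shared stretch cannot be told apart.

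CDK6 was not called. It measured 2379, 2495 and 2366 units with insulin+Torin1, against 2553, 2396 and 2558 with insulin. Insulin+Torin1 replicate 2 was above insulin replicate 2, so the groups overlapped. CDK6 averaged 2413 ± 71.0 units with insulin+Torin1 and 2502 ± 92.1 with insulin, and the log2 fold change was -0.05 with a 95% interval of -0.13 to 0.03 (limma adjusted p 0.199). The interval leaves out a fall of the size seen in CDK4. The sign of this small difference depended on the scaling: it was 0.07 with libraries scaled to equal totals (adjusted p 0.0734) and 0.26 with quantile normalization (adjusted p 2.09e-06). Scaling to equal totals moved the median of all tested genes to 0.14.

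**Figure D2:**
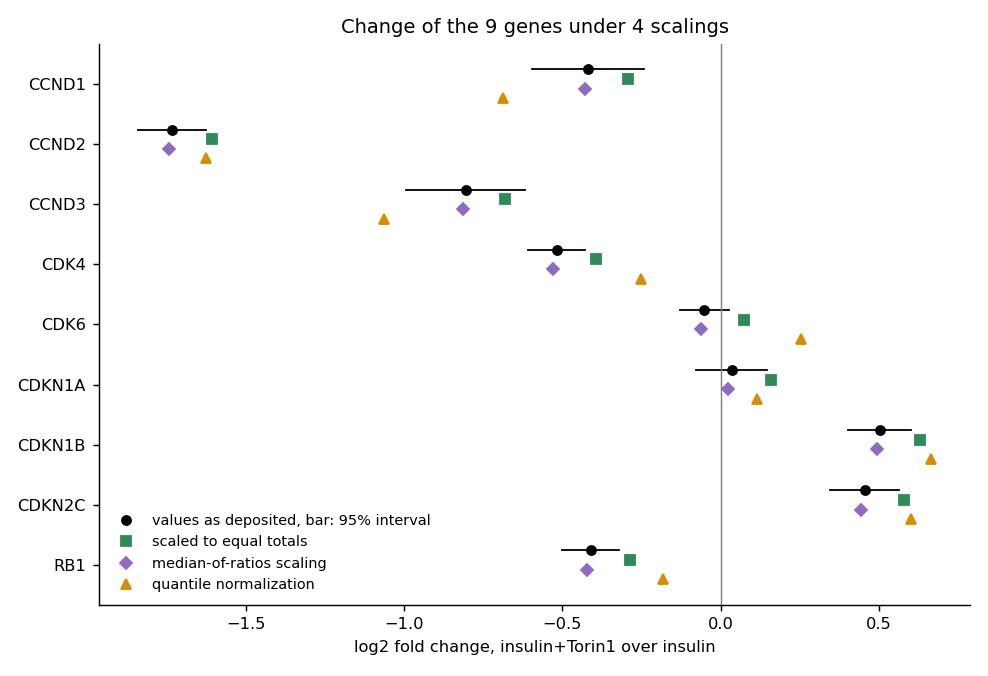
Log2 fold change of each of the 9 genes, insulin+Torin1 over insulin, from limma on the values as deposited (black, with 95% intervals) and after 3 other scalings. CCND2 is near -1.73 under the values as deposited and is the farthest left in all 4, and only CDK6 has values on both sides of 0.

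The 3 inhibitor genes did not move together. CDKN1B, the gene of the Cip/Kip inhibitor p27, measured 1208, 1234 and 1258 units with insulin+Torin1, against 816, 884 and 912 with insulin. All insulin+Torin1 libraries were above all insulin libraries. CDKN1B averaged 1233 ± 25.0 units with insulin+Torin1 and 871 ± 49.4 with insulin (SD, n = 3 each), a ratio of 1.42 and a log2 fold change of 0.50 (95% interval 0.40 to 0.60), with a limma adjusted p of 1.17e-09. CDKN2C, the gene of the INK4 inhibitor p18, measured 1110, 1157 and 1093 units with insulin+Torin1 and 763, 807 and 884 with insulin. Here too the groups did not overlap, and insulin replicate 3 came nearest to the insulin+Torin1 libraries. CDKN2C averaged 1120.0 ± 33.2 units with insulin+Torin1 and 818 ± 61.2 with insulin, a ratio of 1.37 and a log2 fold change of 0.46 (95% interval 0.35 to 0.56), with a limma adjusted p of 2.92e-08.

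CDKN1A, the gene of the Cip/Kip inhibitor p21, was not called. It measured 724, 764 and 770 units with insulin+Torin1, against 741, 692 and 773 with insulin. The groups overlapped, and the highest value of all 6 was an insulin library. CDKN1A averaged 753 ± 25.0 units with insulin+Torin1 and 735 ± 40.8 with insulin, and the log2 fold change was 0.03 with a 95% interval of -0.08 to 0.15 (limma adjusted p 0.549). With libraries scaled to equal totals it was 0.16 (adjusted p 0.00859), and without insulin replicate 2 it was -0.01 (adjusted p 0.887).

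RB1, which encodes the pocket protein that CDK4 and CDK6 phosphorylate, fell. It measured 1175, 1142 and 1203 units with insulin+Torin1, against 1557, 1626 and 1500 with insulin. Every insulin+Torin1 library was below every insulin library. RB1 averaged 1173 ± 30.5 units with insulin+Torin1 and 1561 ± 63.1 with insulin, a ratio of 0.752 and a log2 fold change of -0.41 (95% interval -0.50 to -0.32), with a limma adjusted p of 5.61e-09. With quantile normalization it was -0.18. LPAR6, a lysophosphatidic acid receptor gene, lies inside RB1 on the other strand at chr13:48389571-48444669. It measured 112, 106 and 117 units with insulin+Torin1 and 61, 68 and 88 with insulin, a log2 fold change of 0.64 with a limma adjusted p of 3.54e-04, and thus differed in the other direction from its host.

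Ratios within a library do not depend on a single scaling factor per library, so 4 pairs were compared that way, with log2 ratios, an exact two-sided permutation test, and adjustment over the 4. With 3 libraries against 3, the smallest p this test can give is 0.1. The CDK6 to CDK4 log2 ratio was 0.71, 0.91 and 0.69 with insulin+Torin1 and 0.32, 0.29 and 0.29 with insulin. The groups did not overlap, and the mean difference was 0.47 (exact p 0.1, adjusted 0.133). The CCND1 to CCND3 log2 ratio averaged 0.10 ± 0.117 with insulin+Torin1 and -0.28 ± 0.0872 with insulin, a difference of 0.39 (exact p 0.1, adjusted 0.133). In replicates 1, 2 and 3 it was 0.24, 0.05 and 0.02 with insulin+Torin1, and -0.38, -0.21 and -0.26 with insulin. CCND1 was thus below CCND3 in normalized units in every insulin library, and nearly equal to it in insulin+Torin1 replicates 2 and 3. Values are not per length, so this is no order of transcript number. The CDKN1A to CDKN1B log2 ratio averaged -0.71 ± 0.0237 with insulin+Torin1 and -0.24 ± 0.107 with insulin, a difference of -0.47 (exact p 0.1, adjusted 0.133). The CCND1 to RB1 log2 ratio averaged -2.57 ± 0.0919 with insulin+Torin1 and -2.56 ± 0.0178 with insulin (exact p 1.0). Its difference of -0.01 ranged from -0.06 to 0.02 when single libraries were left out. Quantile normalization changes values within a library too, and with it this difference was -0.51 (exact p 0.1, adjusted 0.1). The other 3 differences were 0.51 for CDK6 to CDK4, 0.37 for CCND1 to CCND3 and -0.55 for CDKN1A to CDKN1B under that normalization.

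For each of the 9 genes, the tested gene with the nearest profile over the 6 libraries was found by Euclidean distance between centred log2 values. CDK4 was nearest to PSMD8, a proteasome subunit gene, at a distance of 0.0301. RB1 was nearest to ZCCHC17 (0.0323), CDKN2C to the forkhead gene FOXF2 (0.0453) and CDKN1B to ERGIC3 (0.05). CDK6 was nearest to the mitochondrial ribosomal protein gene MRPL27 (0.0551), CDKN1A to the thyroid hormone receptor gene THRA (0.0644) and CCND1 to SLAIN1 (0.0694). CCND3 was nearest to PPP1R13L (0.0754), and CCND2 to C6orf136 (0.0969), the largest of the 9 distances. The 2 log2 fold changes of each pair differed by little: PSMD8 was at -0.53 and C6orf136 at -1.74. This follows from choosing the nearest gene by the same 6 values, and is no separate result.

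The genes around this step were described in 8 lists with 93 tested genes, of which 29 were called higher and 55 lower. The shares over all tested genes were 43.4% higher and 42.5% lower. Among the 5 other CDK inhibitors 1 was higher and 4 were lower, with a median log2 fold change of -1.18 against 0.02 over all tested genes. CDKN1C, the third Cip/Kip gene (p57), averaged 97.0 ± 6.56 units with insulin+Torin1 and 666 ± 27.5 with insulin, a log2 fold change of -2.77. CDKN2D, the INK4 gene of p19, averaged 149 ± 6.03 units with insulin+Torin1 and 997 ± 57.9 with insulin (-2.74), and CDKN2B, the INK4 gene of p15, was at -1.18. CDKN2A, which encodes the INK4 protein p16 and the ARF protein, was the 1 that rose, with 1411 ± 31.8 units with insulin+Torin1 and 707 ± 13.6 with insulin (1.00). Thus CDKN2C and CDKN2A were higher while CDKN2B and CDKN2D were lower among INK4 genes, and CDKN1B was higher while CDKN1C was lower among Cip/Kip genes. These calls kept their counts under all 4 scalings.

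The next 3 lists are likewise to be read against 43.4% higher and 42.5% lower over all tested genes. Of the 9 other pocket protein and MuvB-complex genes 2 were higher and 6 lower, with a median log2 fold change of -0.62. With quantile normalization 3 were higher and 6 lower, with a median of -0.31. RBL2, the RB1 relative p130, averaged 2650.3 ± 33.9 units with insulin+Torin1 and 516 ± 23.8 with insulin (2.36), opposite in direction to RB1. LIN52 (-1.70), LIN37 (-1.67) and MYBL2 (-1.31), which encode MuvB subunits and their MYB partner, fell. Among the 10 E2F and DP genes 3 were higher and 5 lower, with a median of -0.14. With libraries scaled to equal totals 5 were higher and 5 lower, and with quantile normalization 4 and 4, so the balance of this list depended on the scaling. E2F2 (-3.04), E2F1 (-1.79) and E2F3 (-1.05), the activating E2Fs, fell, and E2F5 (1.19), a repressive one, rose. The remaining E2F genes did not share a direction. E2F7 was higher (0.19), E2F8 was lower (-0.36), and E2F4 (0.01) and E2F6 (0.11) were not called. E2F1 averaged 961 ± 25.1 units with insulin+Torin1 and 3326 ± 46.1 with insulin. Of 20 E2F target genes of the G1/S step, 19 were tested, 2 were higher and 15 lower, with a median of -0.50. With libraries scaled to equal totals 4 were higher and 14 lower, and with quantile normalization 4 were higher and 12 lower. The thymidine kinase gene TK1 (-1.76), the licensing factor gene CDC6 (-1.64) and the helicase subunit gene MCM6 (-1.30) fell, whereas the thymidylate synthase gene TYMS rose (1.55).

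**Figure D3:**
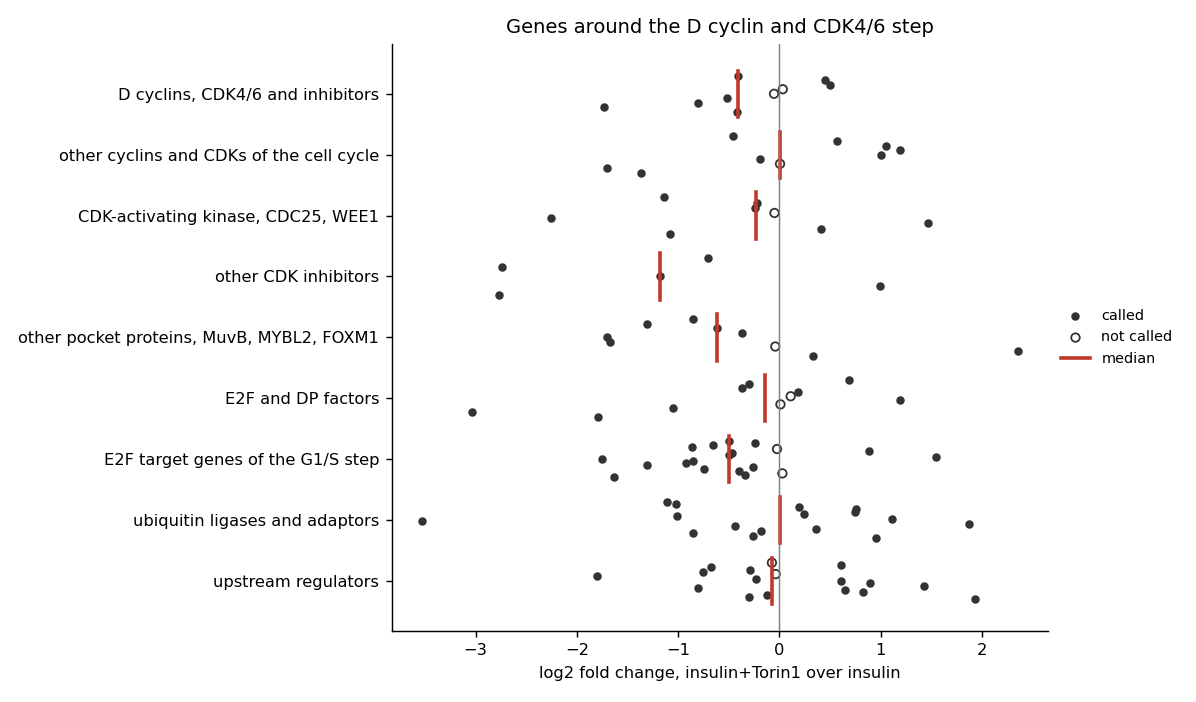
Log2 fold changes, insulin+Torin1 over insulin, of the 9 genes (top row) and of the tested genes in 8 lists around them, with filled points for genes called by limma, open points for those not called, and a red bar at the list median. The medians of the 9 genes (-0.41), the other CDK inhibitors (-1.18), the other pocket proteins and MuvB genes (-0.62) and the E2F targets (-0.50) are left of 0. So are, by less, those of the CDK-activating kinase list (-0.23), the E2F and DP factors (-0.14) and the upstream regulators (-0.07).

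Of the 9 other cyclins and CDKs of the cell cycle 4 were higher and 4 lower, with a median of 0.01. Over all tested genes the shares were 43.4% and 42.5%. With libraries scaled to equal totals 4 of this list were higher and 3 lower, and with quantile normalization 5 and 3. The E-type cyclins, which act after the D cyclins, fell (CCNE2 -1.70, CCNE1 -1.36), and the B-type cyclins CCNB2 (1.20) and CCNB3 (1.05) rose. Of the 8 genes of the CDK-activating kinase, the CDC25 phosphatases and their opposing kinases, 2 were higher and 5 lower. CDC25A (-2.26), PKMYT1 (-1.14) and CDK7 (-1.08) fell and MNAT1 (1.47) rose. CDK7 and MNAT1 encode parts of the same kinase complex. Of the 16 ubiquitin ligase and adaptor genes that act on D cyclins or CDK inhibitors 8 were higher and 8 lower, with a median of 0.01. With equal totals these counts were 8 and 7, and with quantile normalization 8 and 6. SKP2, whose product targets p27, rose (1.12) as did FBXW8 (1.87), and CUL3 (-1.11) and CRYAB (-3.53) fell. CRYAB was near the floor, at 1 to 3 units with insulin+Torin1 and 26 to 33 with insulin. Of the 17 regulators of the 9 genes 7 were higher and 8 lower, with a median of -0.07. With equal totals 7 were higher and 5 lower, and with quantile normalization 8 and 7, so the order depended on the scaling. MYC (1.93), CTNNB1 (1.43) and LEF1 (0.89) were higher and SP1 (-1.80) lower.

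In the m6A data each treatment had 1 deposited list, in which every position appeared once with the replicate it was listed under, its reads and its substituted reads. No test over replicates was possible, and the site counts below are descriptions. The lists do not say whether the replicate number is that of the miCLIP or the input library, so splits by it compare labels. Of the 36 sites with insulin+Torin1, 32 were listed under replicate 1, 1 under replicate 2 and 3 under replicate 3. Of the 64 sites with insulin, the numbers were 36, 24 and 4. Over the series the same split was 56298, 1552 and 5728 sites with insulin+Torin1 and 50656, 39670 and 6345 with insulin. The ratio of site numbers, insulin+Torin1 over insulin, was 0.563 for the 9 genes and 0.658 for the series, and under replicate 1 alone 0.889 and 1.11. Fewer sites were listed with insulin+Torin1 in 8 of the 9 genes and more in 1, where 59.0% of the 10175 protein-coding genes with a site had fewer and 29.7% more. Under replicate 1 alone 8 of the 9 genes had a site, with fewer in 4 and more in 2, against 33.5% and 52.9% of 9536 genes. The numbers of sites therefore moved with the replicate a site was listed under, whose part in the counts was not tested. Among sites with at least 3 substituted reads the order turned, with 15 with insulin+Torin1 and 11 with insulin.

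The D cyclin genes had few sites with insulin+Torin1. CCND1 had 0 sites with insulin+Torin1 and 4 with insulin, each on 1 or 2 reads. CCND3 had 0 with insulin+Torin1 and 2 with insulin, on 1 and 3 reads. Having no site with insulin+Torin1 was shared with 12.2% of protein-coding genes with a site. CCND2 had 1 site with insulin+Torin1 and 12 with insulin, and 11 of its 12 positions lay in the last 6 kb of the gene body. The 1 position in both lists, the CCND2 5-mer shown above, had 3 substituted of 7 reads with insulin+Torin1 and 3 of 22 with insulin. The CCND2 site with the most substituted reads within the insulin list, chr12:4300413-4300413, had 5 of 9 reads substituted and was not listed with insulin+Torin1. CCND2 mRNA was also lower, so fewer reads and less methylation per transcript cannot be told apart from the lists.

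CDK4 had 7 sites with insulin+Torin1 and 10 with insulin, over 11 positions in a gene body of 4584 bases. Its leading site, the CDK4 5-mer shown above, lay 746 bases before the gene end. It had 13 of 83 reads substituted with insulin+Torin1 (15.7%, Wilson 95% interval 9.39% to 25.0%) and 16 of 65 with insulin (24.6%, 15.8% to 36.3%), and the intervals overlapped. Such intervals cover counting error only, and their overlap is not a test of a difference. CDK6 had 4 sites with insulin+Torin1 and 8 with insulin, of which 1 was in both lists, with 5 of 13 reads substituted with insulin+Torin1 and 6 of 28 with insulin. A second CDK6 site, chr7:92615165-92615165, had 8 of 49 reads with insulin and was not listed with insulin+Torin1. RB1 had 3 sites with insulin+Torin1 and 1 with insulin, each on 1 or 2 reads, and none in both lists.

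Of the inhibitor genes, CDKN2C had 11 sites with insulin+Torin1 and 12 with insulin, on 15 positions from 8200 to 13569 bases after the annotated start. Its sites held 25 to 100 reads each with insulin+Torin1 and 2 to 29 with insulin, so that the ranges overlapped only between 25 and 29 reads. The leading CDKN2C site, 666 bases before the gene end, had 12 of 97 reads substituted with insulin+Torin1 and 1 of 23 with insulin. It was the only 1 of the 8 CDKN2C positions in both lists with a higher substituted share with insulin+Torin1. CDKN1B had 7 sites with insulin+Torin1 and 10 with insulin, on 12 positions of which 9 lay within 1 kb of the annotated start. Its sites held 8 to 88 reads with insulin+Torin1 and 3 to 31 with insulin. The leading CDKN1B site, 1227 bases before the gene end, had 9 of 81 reads substituted with insulin+Torin1 and 5 of 31 with insulin. CDKN1A had 3 sites with insulin+Torin1, on 5 to 8 reads, and 5 with insulin, on 8 to 12 reads. Its leading site, 320 bases before the gene end, had 5 of 5 reads substituted with insulin+Torin1, listed under replicate 2, and 1 of 9 with insulin, listed under replicate 1. Transcript models were not used here, so positions are given against gene ends and not as exons or untranslated regions.

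**Figure D4:**
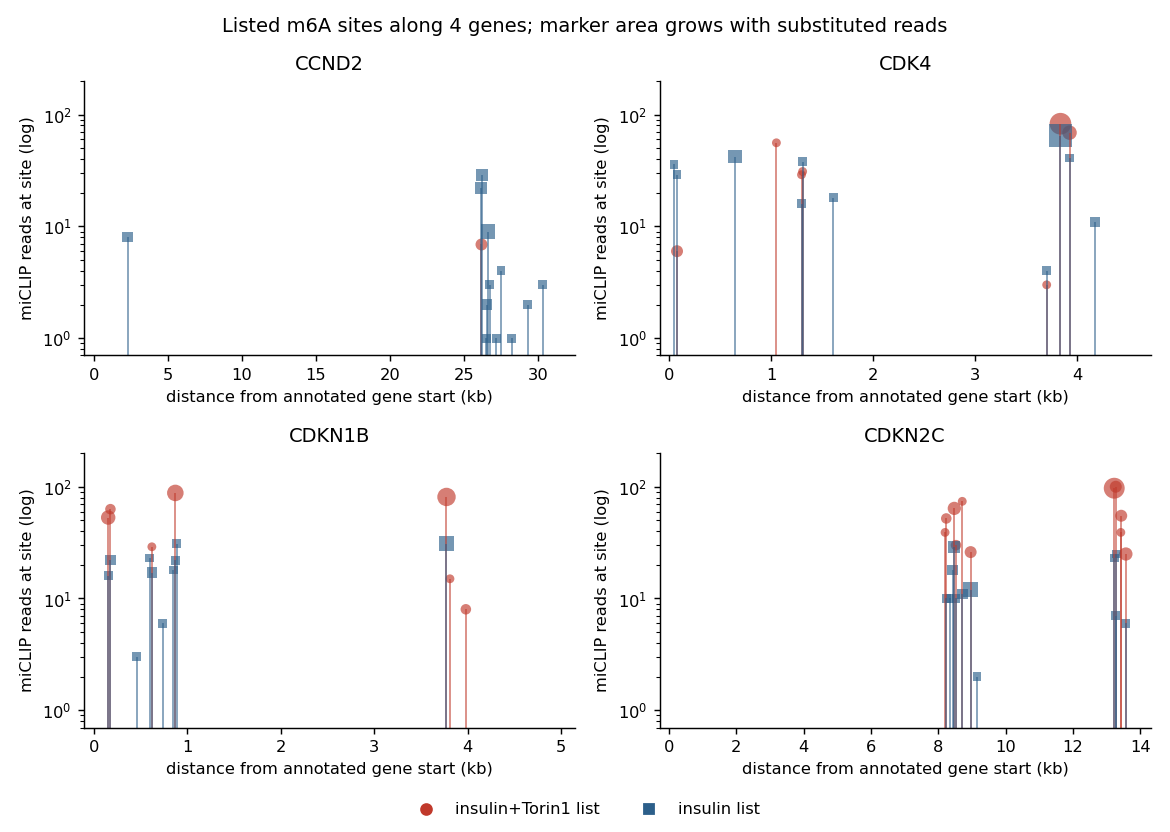
Listed m6A sites of CCND2, CDK4, CDKN1B and CDKN2C by distance from the annotated gene start in kb (horizontal) and miCLIP reads at the site (vertical, log axis), for insulin+Torin1 (red circles) and insulin (blue squares), with marker area growing with substituted reads. CCND2 has 1 red and 12 blue markers, and the red markers of CDKN2C run from 25 to 100 reads.

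Positions in both lists compare the same base. The 9 genes had 23 such positions of 77, which is 63.9% of their sites with insulin+Torin1 (Wilson 95% interval 47.6% to 77.5%) and 35.9% of those with insulin (25.3% to 48.2%). Over the series 27378 positions were in both lists, 43.1% of the insulin+Torin1 list and 28.3% of the insulin list. With insulin+Torin1 the reads at these positions outnumbered those with insulin at 8 of 8 positions of CDKN2C, in all 468 reads with insulin+Torin1 against 108 with insulin. The same held at 5 of 5 positions of CDKN1B, with 314 reads with insulin+Torin1 and 108 with insulin. In CDK4 it held at 3 of 6, with 221 reads with insulin+Torin1 and 193 with insulin. Over the series, 69.5% of shared positions had more reads with insulin+Torin1. There were fewer with insulin+Torin1 at the single position of CCND2 (7 reads with insulin+Torin1, 22 with insulin), at that of CDK6 (13 with insulin+Torin1, 28 with insulin) and at both of CDKN1A (12 with insulin+Torin1, 18 with insulin). The median ratio of reads was 4.19 in CDKN2C, 2.86 in CDKN1B and 1.02 in CDK4, against 1.67 over all shared positions of the series. These ratios are not scaled for the depth of the miCLIP libraries, which is unknown, and the series' median is the value to read them against. At positions listed under replicate 1 in both lists the median ratio was 4.22 over 5 positions of CDKN2C, 2.74 over 4 of CDKN1B and 1.68 over 3 of CDK4, against 1.86 over 16264 positions of the series. In the input libraries, whose values are scaled, the ratios were 1.37 for CDKN2C, 1.42 for CDKN1B and 0.698 for CDK4. As log2 fold changes these were 0.46, 0.50 and -0.52.

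The substituted share of the reads at shared positions of CDKN2C was 6.62% with insulin+Torin1 (Wilson 95% interval 4.71% to 9.25%) and 13.9% with insulin (8.60% to 21.7%). For CDKN1B it was 7.64% with insulin+Torin1 (5.19% to 11.1%) and 10.2% with insulin (5.78% to 17.3%). For CDK4 it was 10.9% with insulin+Torin1 (7.41% to 15.7%) and 10.9% with insulin (7.23% to 16.1%). At the 3 CDK4 positions listed under replicate 1 in both lists it was 10.5% with insulin+Torin1 (6.82% to 15.8%) and 14.8% with insulin (9.54% to 22.1%). The intervals overlapped in all 3 genes, though for CDKN2C only from 8.60% to 9.25%, and overlap is not a test of a difference. The share was higher with insulin+Torin1 at 1 of 8 positions of CDKN2C, 2 of 5 of CDKN1B and 4 of 6 of CDK4. Over the 23 positions the share was 8.99% with insulin+Torin1 and 12.2% with insulin, against 4.45% with insulin+Torin1 and 7.91% with insulin over the series, and it was higher with insulin+Torin1 at 11 of the 23, against 31.8% of the series' shared positions. At the 14 positions listed under replicate 1 in both lists it was higher at 5, against 25.9% over the series, and the pooled share was 8.57% with insulin+Torin1 and 13.8% with insulin. A site needs a substituted read to be listed, so a site on few reads has a high share by construction. Sites resting on a single substituted read were 15 of 36 with insulin+Torin1 (41.7%) and 42 of 64 with insulin (65.6%), against 59.6% with insulin+Torin1 and 61.6% with insulin in the series. Sites of the 9 genes held a median of 29.0 reads with insulin+Torin1 and 9.5 with insulin, against 12.0 with insulin+Torin1 and 8.0 with insulin in the series. The 5-mers began with GGAC at 13 of 36 sites with insulin+Torin1 (36.1%) and at 29 of 64 with insulin (45.3%), against 32.9% with insulin+Torin1 and 31.5% with insulin in the series.

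**Figure D5:**
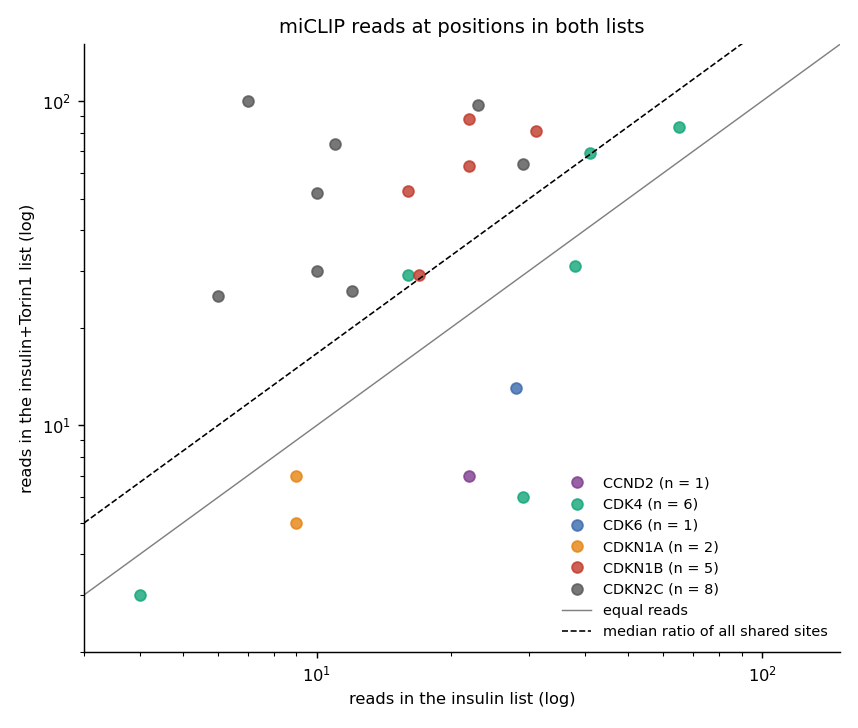
Reads at each of the 23 positions in both m6A lists, with insulin+Torin1 on the vertical and insulin on the horizontal axis (both log), coloured by gene, with the line of equal reads (solid) and the series' median ratio of 1.67 (dashed). All 8 points of CDKN2C and all 5 of CDKN1B are above the solid line, and the points of CCND2, CDK6 and CDKN1A are under it.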

How the data were processed

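Expression was measured in 6 input libraries and m6A in 6 miCLIP libraries, 3 for each treatment. The submitters' processing notes list the build hg38 and the tools STAR, DESeq, DESeq2 (1.22.2) and BWA (0.7.1), with no steps. The authors deposited expression as a score, scaled between libraries and rounded, as the spacing of its low values shows, so no test for raw counts was used. The authors deposited each m6A site as a fraction, its substituted reads over all its reads. Under R 4.3.3, log2(value + 1) was fitted by limma-trend (version 3.58.1), a scale that understates changes of low genes, and the procedure was tested on simulated data. Squared differences between insulin replicates, and between insulin+Torin1 replicates 2 and 3, were 1.09 to 1.24 times those of sampling noise, and all were kept as separate samples. Sites were placed in RefSeq gene bodies; the strand of CCND1 and CCND2 was that of most of their sites, and that of the other 7 genes came from the RefSeq promoter table. All 2186 deposited 5-mers inside promoter windows matched GRCh38. Named were the 9 genes, up to 4 called genes per list by absolute log2 fold change, and the remaining E2F genes. Also named were the nearest gene to each of the 9, and up to 2 sites per gene by substituted reads. Genes and lists were chosen with earlier results of these data known. The values of 1 marker and 1 further gene list are not reported here. Scalings, pseudocounts, filters, left-out replicates, a replicate block, a 1.5-fold test and site filters were tried as alternatives.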

Additional observations from a re-analysis of the deposited data

How the results depend on the processing

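Under 16 alternatives for expression, CCND2 and CCND3 kept their direction and their call throughout, and CCND1, CDK4, CDKN1B, CDKN2C and RB1 did so in 15. In the test for a change beyond 1.5-fold, 0 of the 9 genes were higher and 2 lower, and of the genes in the pathway lists 19 were higher and 31 lower. Over all tested genes 25.0% were higher and 22.5% lower in that test. CDK6 changed sign to 0.0736 with equal totals and 0.26 with quantile normalization, and CDKN1A, which ranged from -0.0085 to 0.0713 without single libraries, was below 0 without insulin replicate 2. Either scaling gave 3 higher and 5 lower genes of the 9, and the list genes, 29 higher and 55 lower as deposited, were 33 and 48 with equal totals and 35 and 46 with quantile normalization. Leaving out single libraries gave 2 higher and 5 lower throughout, and 29 higher and 54 to 56 lower list genes. The CCND1 to RB1 difference ranged from -0.0611 to 0.0195, and was above 0 without insulin+Torin1 replicate 1 or 3, and was -0.5065 with quantile normalization, an alternative added after the data had been seen. Leaving out a replicate gave 4 to 35 sites with insulin+Torin1 and 28 to 60 with insulin. Requiring 3 substituted reads left 15 sites with insulin+Torin1 and 11 with insulin, 10 reads left 24 and 32, and sites listed under replicate 1 numbered 32 and 36. The order of the site counts therefore turned with 3 substituted reads; the cause was not tested. The labels share replicate numbers, and deviations of same-numbered libraries had correlations of -0.0234, 0.00972 and -0.00399. Replicates with a recovered depth differed by little more than sampling noise, so these correlations cannot decide whether same-numbered libraries shared a batch. With the replicate as a block 2 genes were higher and 5 lower, as without it. The list counts were computed under each setting after the data had been seen. Expression lacks a depth for 1 library, and the m6A lists lack unlisted positions.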

Other observations

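Listed sites on the strand opposite to the gene were 7 with insulin+Torin1 and 12 with insulin over the 9 genes. CDKN2C had 4 such sites with insulin+Torin1, on 18 to 48 reads, and 4 with insulin, on 4 to 13 reads. Those in both lists had more reads with insulin+Torin1, as on the gene strand. At chr1:50967981 there were 23 reads with insulin+Torin1 and 6 with insulin. At chr1:50969861 there were 48 with insulin+Torin1 and 13 with insulin. RB1 had 3 with insulin+Torin1 and 4 with insulin, of which 2 and 3 lay in the body of LPAR6, the gene on that strand.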
